A study of Mus musculus with 8 samples.

Results

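The C-type lectin receptors of myeloid cells described here are 10 genes, Clec4a1, Clec4a2, Clec4a3, Clec4d, Clec4e, Clec4n, Clec5a, Clec7a, Clec10a and Asgr2, chosen by name from the 26930 genes of the count table. Each of the 10 had enough counts to be among the 12852 genes tested. The RNA came from cultured mouse MDSCs, short for myeloid-derived suppressor cells, a population of immature myeloid cells able to hold back T cells, and the labels call them senescent-like. All cells were grown from bone marrow of C57BL/6 mice in GM-CSF and IL-6, each at 40 ng/ml, and received medium conditioned by the mouse prostate tumour line TRAMP-C1 on day 4. The 4 untreated libraries were compared with 4 libraries of cells given Romidepsin, an inhibitor of histone deacetylases, at 0.5 µM for 6 h. The model is a culture grown in vitro, and the labels name no separate animals or cultures behind the replicates, so each p-value reflects the spread among these 8 libraries alone, and that spread may be technical. The question put to these genes is how their transcripts, and those of the pathway below them, stood with and without the drug.

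C-type lectin receptors bind sugars, glycolipids or proteins of microbes and damaged cells through a carbohydrate-recognition fold. Dectin-1 (Clec7a), Dectin-2 (Clec4n), MCL (Clec4d) and Mincle (Clec4e) activate the kinase Syk, the first through its own cytoplasmic tail and the others through the Fc receptor gamma chain (Fcer1g), and signal on through Card9, Bcl10 and Malt1 to NF-kB. Clec5a signals through the adaptor DAP12 (Tyrobp), the DCIR family member Clec4a2 carries an inhibitory motif, and Clec10a and Asgr2 belong to the galactose-binding branch that takes up glycoproteins. In neutrophils, monocytes and macrophages these receptors are known for the response to fungi and mycobacteria.

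Levels are CPM, counts relative to the library total, after TMM scaling for library composition. They are listed for replicates 1 to 4 and summarised as mean ± SD with n = 4. Fold changes, treated against untreated, are given on the log2 scale ± SE and come from edgeR's quasi-likelihood test, with p-values adjusted by Benjamini-Hochberg over all 12852 genes and a threshold of 0.05. Library totals ran from 12996892 to 23176949 counts, and treated replicate 3 correlated more closely with the untreated libraries (mean r 0.929) than with its own group (0.907). Fold changes of the receptors and of other called genes that it moved by more than 1.5-fold are given with and without it. Markers of both MDSC lineages were present, and no marker of the lists given here was at 0 in all libraries. The summed level of 11 neutrophil markers was 3523 to 9084 CPM in untreated and 1100 to 3930 in treated libraries, and that of 11 monocyte and macrophage markers 6732 to 13718 and 1745 to 8438. In the same test 4 neutrophil and 1 monocyte marker fell. Over all tested genes 16.2% fell, to be read beside these counts and the marker counts that follow. For 8 B cell markers, of which 6 fell, the sums were 295 to 1003 and 32.8 to 443 CPM, and for 10 dendritic cell markers, of which 1 of 6 tested fell, 621 to 1419 and 327 to 945. The part of these markers in the results below was not tested, and in bulk RNA fewer cells of a type and less RNA per cell cannot be told apart.

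Upstream sequence is shown first for 3 genes on which the results turn: the chromosome 6 neighbours Clec4d and Clec4e, whose ratio differed between the groups without overlap, and Asgr2, with the lowest fold change of the 10. Each is the 250 bases before the RefSeq gene start on GRCm38.p6, 5′ to 3′ in the direction of the gene. Capitals mark letters that matched a motif searched on both strands.
Clec4d: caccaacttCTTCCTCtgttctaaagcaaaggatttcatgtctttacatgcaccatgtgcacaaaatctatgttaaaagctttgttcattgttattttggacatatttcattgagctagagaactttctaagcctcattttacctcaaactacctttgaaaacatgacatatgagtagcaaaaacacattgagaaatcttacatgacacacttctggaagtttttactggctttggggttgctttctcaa
Clec4e: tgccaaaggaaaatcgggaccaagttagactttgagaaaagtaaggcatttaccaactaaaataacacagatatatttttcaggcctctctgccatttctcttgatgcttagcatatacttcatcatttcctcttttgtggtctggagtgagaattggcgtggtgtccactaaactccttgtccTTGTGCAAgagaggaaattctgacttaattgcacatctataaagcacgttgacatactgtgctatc
Asgr2: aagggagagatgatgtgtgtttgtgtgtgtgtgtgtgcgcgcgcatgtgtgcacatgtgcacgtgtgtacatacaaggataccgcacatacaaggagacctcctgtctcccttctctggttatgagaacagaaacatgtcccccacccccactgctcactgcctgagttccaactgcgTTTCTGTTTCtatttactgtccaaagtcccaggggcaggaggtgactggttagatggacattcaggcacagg
These stretches lie at chr6:123261857-123262106, plus strand (Clec4d), chr6:123289872-123290121, minus strand (Clec4e) and chr11:70092394-70092643, plus strand (Asgr2). The capitals of Clec4d are GAGGAAG, the core bound by PU.1-type ETS factors, on the reverse strand. The capitals of Clec4e match the C/EBP-type motif TTGCNNAA and those of Asgr2 an IRF-type motif (GAAA, any bases NN, GAAA), both on the reverse strand too.

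RefSeq promoter windows of 300 bases, which run 50 bases past the start, were at hand for 8 of the 10 genes, not for Clec4n and Clec10a. GAGGAAG stood in the windows of 3 of the 8 (Clec4a1, Clec4d and Clec5a, which held it at 82 and at 56 bases before the start), against 13.6% of all 32851 windows. TTGCNNAA was found for Clec4e alone (10.8% of all windows) and the AP-1-type motif TGANTCA for Clec4a2 alone (7.81%). The IRF-type motif was found for Asgr2 and, at the first transcribed bases, Clec4d (3.44%), and the NF-kB-type motif (GGG, NNNNN, CC) for Clec4a1, as 2 overlapping matches (50.8%). The windows of Clec4a3 and Clec7a held none of these letters. A match is a description of letters and not a bound site. The ETS factor gene Spi1, which encodes PU.1, was lower after treatment, at 91.2 ± 94.9 against 539 ± 94.6 CPM (−2.56 ± 0.69 on the log2 scale, adjusted p = 0.0204 in edgeR), and treated replicates 1 to 4 held 28.2, 20.5, 225 and 90.8 CPM. Its estimate was −3.55 without treated replicate 3, and the adjusted p was 0.0546 without treated replicate 4.

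Of the 10 receptor genes 5 fell after Romidepsin and 0 rose. The 5 were Clec4a2, Clec4d, Clec7a, Clec10a and Asgr2, against 16.2% of all tested genes called lower and 20.3% called higher. The 0 higher calls held in every alternative fit, DESeq2 among them. The median log2 fold change of the 10 was −1.62, beside 0.0057 over all tested genes. For 7 of them every treated library lay below every untreated one, against 16.5% of all tested genes, and for 0 every treated library lay above (18.7%). Of the 10 genes, 8 were lower in every pair of libraries with the same number (29.5% of all genes were), and 8 were at least 2-fold lower by their estimate (15.2%). When replicate numbers were used as a block to pair libraries, 6 fell (20.8% of all genes), since Clec4a1 and Clec4a3 passed and Clec10a did not. Without treated replicate 3, 9 fell (23.4%), and without both libraries numbered 3, 8 fell (18.9%). The DESeq2 Wald test gave 8 lower genes (21.7%), limma-voom 8 (18.7%), library size alone 4 (10.6%), housekeeping scaling 3 (4.92%) and the fit without a count filter 3 (6.27%). In these alternatives other than the last, in this order, 21.2%, 24.5%, 20.1%, 21.9%, 20%, 30.2% and 46.7% of all genes were called higher, and of the 10 receptors 0. Leaving out 1 of the other 7 libraries left 2 of the 10 lower, or 1 without untreated replicate 3 (9.6% of all genes). In these fits 13.4%, 10.9% and 13.6% of all genes were lower without untreated replicates 1, 2 and 4, and 9.46%, 10.1% and 9.2% without treated replicates 1, 2 and 4, so the share of the 10 lay closer to that of all genes. Estimates of the 9 genes other than Clec4e stayed below 0 under library-size, upper-quartile, DESeq2 size-factor and housekeeping scaling, which shifted the median of all genes by up to 0.715.

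**Figure D1:**
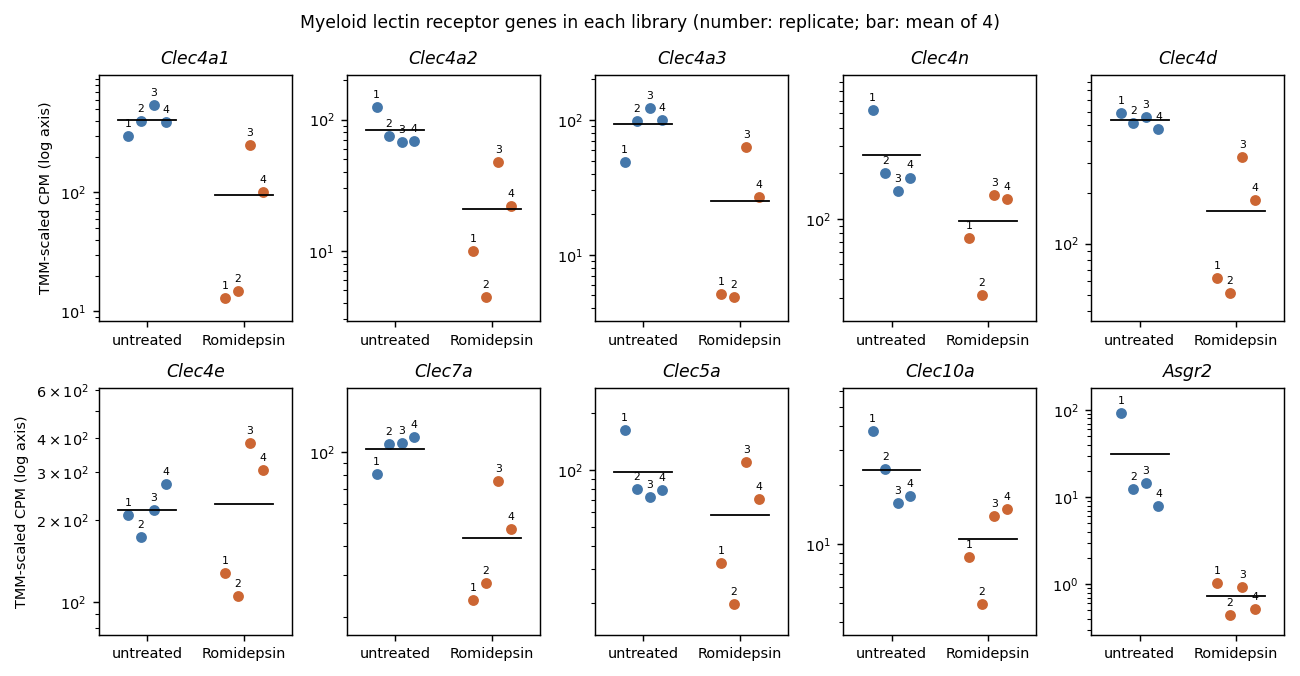
TMM-scaled CPM on log axes for each of the 10 receptor genes, with 1 point per library (number: replicate) and bars at the mean of the 4 libraries of a group. Treated replicates 1 and 2 sit lowest for most genes and treated replicate 3 nearest to the untreated libraries, while Clec4e shows overlapping groups.

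The treated libraries were graded. In replicates 1 and 2 all 10 genes stood below their lowest untreated value, in replicate 4, 9 did, and in replicate 3, 7. The corresponding shares of all tested genes were 36.2%, 35.6%, 31.9% and 25.1%. Against the untreated library of the same number, the median log2 difference of the 10 genes was −3.01, −3.00, −0.52 and −1.34 for replicates 1 to 4, whereas the median over all tested genes lay between −0.0052 and 0.029.

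Among the DCIR family, Clec4a2, which carries the inhibitory motif, fell. It measured 125, 75.2, 67.2 and 68.7 CPM in untreated and 9.98, 4.45, 47.5 and 22 CPM in treated replicates 1 to 4. The groups did not overlap, with untreated replicate 1 the highest and treated replicate 3 the nearest to the untreated range. The mean went from 83.9 ± 27.4 to 20.99 ± 19.1 CPM (log2 fold change −2.001 ± 0.62, edgeR adjusted p = 0.0333). The call was lost without any 1 of 6 libraries, at adjusted p = 0.0535 to 0.0753, and held without treated replicate 2 or 3 (−2.80 without the latter, adjusted p = 0.00312). Clec4a2 also did not pass in the edgeR fit without a count filter (adjusted p = 0.136). About 3.24% of its 75-base stretches also occur in Clec4a4 or Clec4b1, whose reads the authors' counting may have split. Clec4a1, a further member of the DCIR family, measured 299.7, 395, 540 and 392 CPM in untreated and 12.9, 14.8, 249 and 101 CPM in treated libraries. All treated values lay below all untreated ones, but treated replicates 1 and 2 stood more than 10-fold below replicate 3. In the unpaired edgeR fit it did not pass (log2 fold change −2.11 ± 0.85, adjusted p = 0.0781), whereas it passed with the block (−3.09, adjusted p = 0.0120) and without treated replicate 3 (−3.27, adjusted p = 0.00856). Clec4a3 measured 48.6, 98.3, 123 and 101 CPM in untreated and 5.10, 4.89, 62.8 and 26.7 CPM in treated libraries. Here treated replicate 3 lay above untreated replicate 1, so the groups overlapped, although each treated library was below the untreated one of its number. Its log2 fold change was −1.90 ± 0.76 (edgeR adjusted p = 0.0775), −2.57 with the block (adjusted p = 0.00920) and −2.94 without treated replicate 3 (adjusted p = 0.00755).

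No ratio among the 3 DCIR genes passed. Within a library the log2 ratio of Clec4a1 to Clec4a3 was 2.18 ± 0.30 in untreated and 1.70 ± 0.30 in treated cells (exact two-sided permutation p = 0.0571, adjusted 0.190 over the 10 ratios computed, lower in 4 of 4 pairs). For Clec4a1 over Clec4a2 the difference was −0.63 ± 0.58 (exact p = 0.343) and for Clec4a2 over Clec4a3 0.15 ± 0.59 (exact p = 0.714). Neither passed. Taken within pairs of the same number, Clec4a1 over Clec4a2 was lower in 4 of 4 pairs, with an SD of the pair differences of 0.24 (exact sign-flip p = 0.125, the smallest that 4 pairs allow).

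Of the receptors that use the Fc receptor gamma chain, Clec4d fell, and Clec4n and Clec4e did not pass. Clec4d, which encodes the glycolipid receptor MCL, had 585, 514, 560 and 472 CPM in untreated and 62.7, 51.1, 324 and 182 CPM in treated libraries. The untreated values were tight and all treated values lay below them. The mean went from 533 ± 50.2 to 155 ± 127 CPM (log2 fold change −1.78 ± 0.54, edgeR adjusted p = 0.0304), and without any single library other than treated replicate 3 the adjusted p was 0.0503 to 0.0646. Without treated replicate 3 the log2 fold change was −2.45 (adjusted p = 0.00284). Clec4d did not pass in the edgeR fit without a count filter (adjusted p = 0.0897). Clec4n, the mannan receptor Dectin-2, had 519, 201, 153 and 187 CPM in untreated and 74.2, 31.4, 144 and 135 CPM in treated libraries. The groups did not overlap, but treated replicates 3 and 4 came close to the lowest untreated value, and untreated replicate 1 stood far above the other untreated ones. Its log2 fold change was −1.46 ± 0.53 (edgeR adjusted p = 0.0572, and 0.0526 with the block). It passed without treated replicate 3 (−1.73, adjusted p = 0.0372), and was −0.91 without untreated replicate 1 (adjusted p = 0.151).

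Clec4e, which encodes Mincle, the receptor for the mycobacterial cord factor, had 208, 172, 218 and 270 CPM in untreated and 127, 105, 382 and 304 CPM in treated libraries. Treated replicates 1 and 2 were below all untreated values and replicates 3 and 4 above them, so that the treated group spanned the untreated one. The means were 217 ± 40.5 and 229.5 ± 135 CPM (log2 fold change 0.08 ± 0.40, edgeR adjusted p = 0.885). The sign depended on the fit: it was −0.11 with the block, −0.29 if treated replicate 3 was left out and 0.67 with housekeeping scaling, and no alternative passed the threshold.

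The neighbours Clec4d and Clec4e lie 6.52 kb apart, on opposite strands with their 3′ ends facing. In each untreated library Clec4e stood below Clec4d, at log2 ratios of −1.49, −1.58, −1.36 and −0.80, and in each treated library above it, at 1.02, 1.04, 0.24 and 0.74. The groups did not overlap. The difference was 2.07 ± 0.26 on the log2 scale, or 4.196-fold (exact two-sided permutation p = 0.0286, the smallest that 4 against 4 libraries allow, adjusted 0.143 over 10 ratios, higher in 4 of 4 pairs). Clec4d also stood lower against the adaptor Fcer1g in all treated libraries, by −1.32 ± 0.33 (exact p = 0.0286, adjusted 0.143). For Clec4e over Fcer1g the difference was 0.75 ± 0.35 (exact p = 0.114, adjusted 0.286) and for Clec4n over Clec4d 0.67 ± 0.46 (exact p = 0.229, adjusted 0.457). Within pairs the latter was higher in 4 of 4, with an SD of 0.20 (exact sign-flip p = 0.125). For Clec4n over Fcer1g it was −0.65 ± 0.56 (exact p = 0.286, adjusted 0.476). None of the 10 ratios passed after adjustment, while 2 had an unadjusted exact p under 0.05: with tests this small, several ratios would have to reach the lowest p together. A ratio within a library shows unequal change and not which transcript moved. The plot of ratios gives the libraries behind 4 of them.

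**Figure D2:**
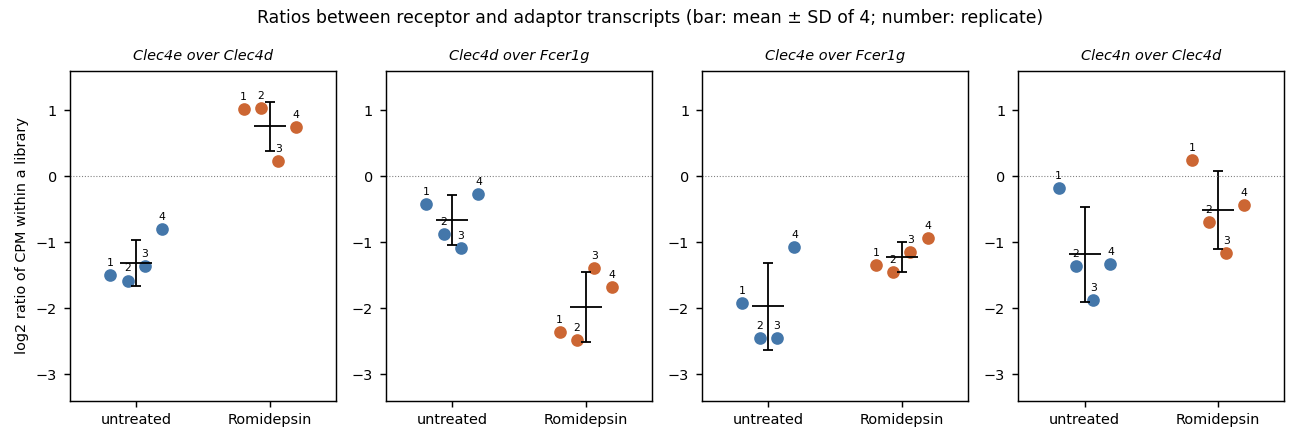
Log2 ratios of CPM within each library for 4 pairs of receptor and adaptor transcripts, with points for libraries (number: replicate) and bars for mean ± SD of 4. Clec4e over Clec4d lies between −1.58 and −0.80 in untreated and between 0.24 and 1.04 in treated libraries, without overlap.

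Clec7a, the beta-glucan receptor Dectin-1, fell. It had 80.9, 108, 110 and 116 CPM in untreated and 23.6, 27.8, 75.2 and 47.0 CPM in treated libraries. The groups did not overlap, and treated replicate 3 came within a few CPM of untreated replicate 1. The mean went from 104 ± 15.5 to 43.4 ± 23.5 CPM (log2 fold change −1.26 ± 0.35, edgeR adjusted p = 0.0213). The call was lost without untreated replicate 3, treated replicate 2 or treated replicate 4, at adjusted p = 0.0502 to 0.0536, and with housekeeping scaling (−0.65, adjusted p = 0.102), and without treated replicate 3 the estimate was −1.68. Clec5a, the DAP12-coupled receptor MDL-1, had 163, 79.9, 72.4 and 78.2 CPM in untreated and 32.3, 19.6, 110 and 70.5 CPM in treated libraries. Treated replicate 3 lay above 3 of the untreated libraries and treated replicates 1, 2 and 4 below all of them. Its log2 fold change was −0.76 ± 0.51 (edgeR adjusted p = 0.259), −1.28 without treated replicate 3 (adjusted p = 0.0498) and −0.40 without untreated replicate 1. Against Tyrobp, its adaptor, the log2 ratio moved by 0.16 ± 0.38 (exact p = 0.686).

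Both galactose-type genes fell. Clec10a, the macrophage galactose lectin MGL1, had 37.6, 24.0, 16.1 and 17.5 CPM in untreated and 8.55, 4.95, 13.8 and 15.0 CPM in treated libraries. The groups did not overlap, though treated replicates 3 and 4 stood just under untreated replicates 3 and 4. The mean went from 23.8 ± 9.81 to 10.6 ± 4.69 CPM (log2 fold change −1.17 ± 0.39, edgeR adjusted p = 0.0435). The adjusted p was 0.0526 with the block and 0.0513 to 0.110 without any 1 of 6 libraries, while it held without treated replicate 3 or 4. The call was also lost with library size alone (−0.93, adjusted p = 0.0811), upper-quartile factors (adjusted p = 0.0506) and housekeeping scaling (−0.48, adjusted p = 0.230). Its paralog Mgl2, which shares 6.56% of its 75-base stretches with Clec10a, fell as well (log2 fold change −1.93 ± 0.65, edgeR adjusted p = 0.0441), though the call was lost without any 1 of 6 libraries (adjusted p = 0.0512 to 0.105) and the estimate was −0.85 without untreated replicate 1. The ratio of the pair differed by 0.38 ± 0.48 (exact p = 0.486).

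Asgr2, a subunit of the receptor by which liver cells clear glycoproteins, had 91.9, 12.3, 14.5 and 7.98 CPM in untreated and 1.03, 0.445, 0.927 and 0.518 CPM in treated libraries. Untreated replicate 1 stood far above the others, and even the lowest untreated value was above every treated one. The treated values rest on 18, 7, 14 and 8 counts. The log2 fold change was −5.41 ± 0.91 (edgeR adjusted p = 0.00347), and −3.97 without untreated replicate 1 (adjusted p = 0.00254). Asgr2 passed in all 18 alternatives, where adjusted p ran from 5.6e-12 to 0.0180. Asgr1, which encodes the other subunit, missed the count filter, so a ratio of the subunits was left out.

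Untreated replicate 1 was the highest untreated library for Clec4a2, Clec4d, Clec4n, Clec5a, Clec10a and Asgr2 and the lowest for Clec4a1, Clec4a3 and Clec7a. Chosen after values were seen, 3 markers were also high there: Itgax, a dendritic cell integrin, at 155 CPM against 9.37 to 34.6 in the other untreated libraries, Cdh1 (E-cadherin) at 174 against 4.74 to 5.62, and Siglecf, an eosinophil and macrophage lectin, at 27.2 against 5.01 to 7.19. The 4 eosinophil markers of the list, Siglecf among them, together held 21.4 to 43.6 CPM in untreated libraries. The other members of that list therefore did not show the gap seen for Siglecf. The listed epithelial markers, Cdh1 among them, together held 5.01 to 177 CPM in untreated libraries. Cdh1 thus made up nearly all of the highest sum, and the other epithelial markers did not show its gap. The other dendritic cell markers are not given here by library. Treated replicate 1 held 93.2 CPM of Itgax and 52.9 CPM of Cdh1. The part of these markers in the receptor values was not tested.

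**Figure D3:**
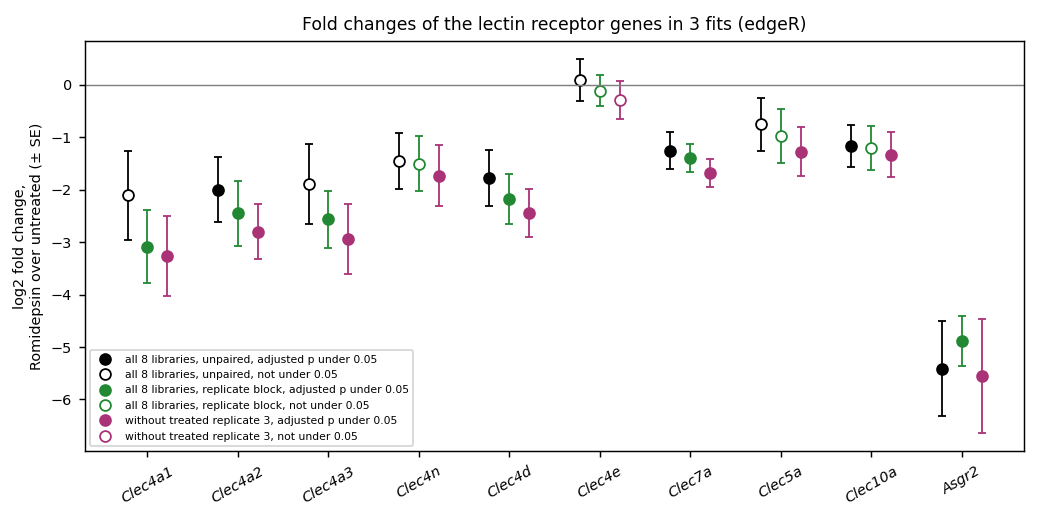
Log2 fold changes (points) ± SE (bars) of the 10 receptor genes in 3 edgeR fits: all libraries unpaired, all libraries in blocks by replicate number, and treated replicate 3 left out. Filled points have an adjusted p under 0.05. Without treated replicate 3, 9 genes are filled, and Clec4e lies near 0 in each fit.

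Per kb of exon, which lets genes be compared, Clec4d transcripts were the most abundant of the 10 in untreated cells at 333 CPM per kb, followed by Clec4a1 (261), Clec4n (187), Clec4a3 (69.8), Clec4e (43.7), Clec7a (39.3), Clec4a2 (28.7), Clec5a (25.6), Asgr2 (20.1) and Clec10a (8.21). The ranges over libraries of neighbours in this order overlapped, except that Clec4n, at 108 CPM per kb or more, lay above Clec4a3, at 92.9 or less. In treated cells Clec4d (96.8), Clec4n (67.7) and Clec4a1 (60.6) led by mean CPM per kb. Clec4e stood next at 46.2 CPM per kb, above Clec4a3 (18.8), Clec7a (16.4), Clec5a (15.1), Clec4a2 (7.17), Clec10a (3.65) and Asgr2 (0.464). This order turned on treated replicate 3, without which Clec4e, at 36.0 CPM per kb, stood above Clec4a1, at 27.4. In treated replicates 1 and 2 Clec4e was at 25.6 and 21.1 CPM per kb and Clec4a1 at 8.28 and 9.50.

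The gene with the profile nearest to that of Clec4e, by root mean square difference of log2 CPM over the 8 libraries after centring, was Tmbim1 (0.163), then Cd276 (0.179) and Smpdl3b (0.183), among 9038 candidates with a mean of at least 10 CPM. Its nearest fellow receptor was Clec5a, at 0.604. For Clec7a the nearest were Arhgef2 (0.0573), Nsmaf (0.0623) and Pld2 (0.0624), closer than for any other receptor examined. Clec10a was nearest to Cebpa (0.204), which encodes a myeloid transcription factor, BC037034 (0.212) and Csf2ra (0.225), the GM-CSF receptor alpha chain. Asgr2 had no near match: Ciita, the regulator of MHC class II genes, stood at 0.881, Ltb at 0.987 and Ccnd1 at 1.10. Among the receptors themselves Clec4n and Clec10a (0.305), Clec4d and Clec4a2 (0.345) and Clec4a1 and Clec4a3 (0.356) were each the nearest to the other, and Clec5a was nearest to Clec10a (0.349). These distances describe 8 libraries and were not tested.

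Of the 10 genes 8 lie on chromosome 6 of GRCm38, 6 of them in 1 cluster of 368 kb: Clec4a1 (122921848 to 122934619), Clec4a3 (122952515 to 122969875), Clec4a2 (123106428 to 123143999), Clec4n (123229843 to 123247021) and Clec4d (123262111 to 123275265) on the plus strand, and Clec4e (123281789 to 123289870) on the minus strand. Clec5a (40574894 to 40585821) and Clec7a (129461591 to 129472779), both on the minus strand, lie apart from it. Asgr2 (70092644 to 70106187) and Clec10a (70156197 to 70170834), both on the plus strand, lie 50.01 kb apart on chromosome 11, with Mgl2 between them. The intervals are whole genes with exons and introns, and no exon of the 10 overlaps another annotated gene. The annotation lists mouse Clec7a as a polymorphic pseudogene, although it encodes a receptor in C57BL/6 mice.

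The lower levels were not shared by every gene around the cluster. Within 500 kb of it 12 further genes were tested, of which 4 fell, 0 rose and 8 did not pass. Over all tested genes, 16.2% fell and 20.3% rose. Among those that fell were the lectin gene Clec4b2 (log2 fold change −3.05), Dppa3 (−3.28) and Gdf3 (−2.10, adjusted p = 0.0499 in edgeR). All of these were lowly expressed, with untreated means of 2.71, 3.98 and 2.81 CPM in this order. Named after their values were seen, C3ar1, which encodes the receptor of complement fragment C3a, had an estimate of −2.60 (edgeR adjusted p = 0.101), while Foxj2 and Necap1, on either side of C3ar1, were at 0.07 and 0.02. Without treated replicate 3 the estimates were −4.39 for Clec4b2, −4.22 for Dppa3 and −3.15 for Gdf3. Dppa3 did not pass without untreated replicate 2 (adjusted p = 0.0502), nor did Gdf3 without any 1 of the other 7 libraries (0.0505 to 0.117). Within 250 kb of Clec7a, 9 further genes were tested, to be read beside the same shares of all genes. Olr1, the oxidised LDL receptor, rose (1.91), Clec1b (−1.11), whose exons overlap those of Clec9a, and the natural killer receptor gene Klrk1 (−2.91) fell, and 6 did not pass. Clec1b passed in edgeR without treated replicate 4 (−1.46, adjusted p = 0.0242) but not without any 1 of the other 7 libraries (0.0620 to 0.114). Klrk1 was at −3.88 without treated replicate 3.

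Beyond the 10, 29 of 36 listed C-type lectins of myeloid cells were in the table and 19 were tested, of which 7 fell, 3 rose and 9 did not pass (median log2 fold change −1.23). Over all tested genes, 16.2% fell and 20.3% rose in this fit, to be read beside this list and those that follow. Selp, the adhesion lectin P-selectin, fell from 4.53 ± 1.44 to 1.27 ± 0.36 CPM (edgeR adjusted p = 0.00604), and Cd302, an endocytic lectin, from 122 ± 13.5 to 64.5 ± 21.4 CPM (adjusted p = 0.0180, and 0.0519 and 0.0527 without treated replicate 1 and untreated replicate 3). Clec2i, a ligand of natural killer receptors, rose from 47.2 ± 5.63 to 89.9 ± 13.4 CPM (adjusted p = 0.00380). Clec12a, an inhibitory receptor for uric acid crystals, had 303, 554, 643 and 383 CPM in untreated and 4.19, 17.5, 294 and 141 CPM in treated libraries. These groups did not overlap, and the estimate of −2.05 did not pass (edgeR adjusted p = 0.137). With the block 12 of the 19 fell, as did 20.8% of all genes.

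Of 30 genes of proximal signalling, from the adaptors and Syk to Card9, 14 fell, 1 rose and 15 did not pass, with a median log2 fold change of −0.81. Card9, the scaffold that links Syk to NF-kB, fell from 120 ± 44.3 to 33.95 ± 23.1 CPM (edgeR log2 fold change −1.82 ± 0.49 with adjusted p = 0.0199), and its partner Bcl10 fell from 92.4 ± 3.23 to 64.5 ± 8.55 CPM (−0.52). The adaptor Tyrobp fell from 1063 ± 226 to 512 ± 229 CPM (−1.05 ± 0.34, adjusted p = 0.0393), whereas Fcer1g, at 870 ± 262 and 510 ± 261 CPM, did not pass (−0.77 ± 0.39, adjusted p = 0.140), nor did Syk (−1.13, adjusted p = 0.0537). Leaving out 1 library ended the calls of Card9 (treated replicate 1, adjusted p = 0.0503), Bcl10 (treated replicates 1 and 2 and untreated replicate 3, 0.0617 to 0.0651) and Tyrobp (each of 6 libraries, 0.0708 to 0.101). Lower too were the kinase gene Pik3cd (−1.33) and the adaptor gene Pik3ap1 (−1.72), both without overlap between groups. Plcg1, a phospholipase, rose from 17.5 ± 3.16 to 68.1 ± 25.7 CPM (1.96 ± 0.30, adjusted p = 0.00240). Malt1, the protease of the Card9 complex, was at 50.5 ± 7.39 and 69.7 ± 19.2 CPM and did not pass (0.46, adjusted p = 0.114). The exons of Card9, Plcg1, Selp, Il1b and Itpr3 overlap a gene on the opposite strand, and whether counting used strand is not given in these sources.

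In the calcium and NFAT arm 1 of 13 tested genes rose, 1 fell and 11 did not pass (median 0.12). Itpr3 (0.85) rose and Itpr2 (−0.93) fell, both calcium channels of the endoplasmic reticulum, and the calcineurin subunit Ppp3ca did not pass (0.13). Without treated replicate 3, 4 of the 13 rose, against 24.5% of all genes. In the NF-kB arm 6 of 14 tested genes fell, 2 rose and 6 did not pass (median −0.32). The NF-kB subunit gene Rela fell from 117 ± 7.54 to 70.3 ± 5.90 CPM (edgeR adjusted p = 0.00456), as did the kinase adaptors Tab1 (−1.11) and Tab2 (−0.88), the kinase gene Chuk rose (0.92), and the inhibitor Nfkbia did not pass (0.23). With library size as the only scaling 3 of the 14 fell, and with housekeeping scaling 0, against 10.6% and 4.92% of all genes.

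Known outputs of these receptors, cytokines and enzymes, went in both directions. Of 10 tested 4 rose, 1 fell and 5 did not pass (median 0.31). The chemokine gene Cxcl1 had 7.43, 7.93, 3.70 and 4.35 CPM in untreated and 85.3, 53.0, 9.99 and 25.9 CPM in treated libraries (2.90 ± 0.61, edgeR adjusted p = 0.00811). Every treated library lay above every untreated one, and treated replicates 1 and 2, the lowest treated libraries for 9 of the 10 receptors, were the highest here. The cytokine gene Il1b rose from 28.9 ± 5.02 to 181 ± 150 CPM (2.65 ± 0.64, adjusted p = 0.0140), with 271, 343, 33.1 and 76.8 CPM in treated replicates 1 to 4, of which the third lay within the untreated range. Ptgs2, which encodes COX-2, rose too (5.46). Ccl4, a chemokine gene, fell (−1.94, adjusted p = 0.0288, and −2.78 without treated replicate 3), but did not pass without any 1 of 5 other libraries (0.0633 to 0.0804), and Ccl2 did not pass (0.77).

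**Figure D4:**
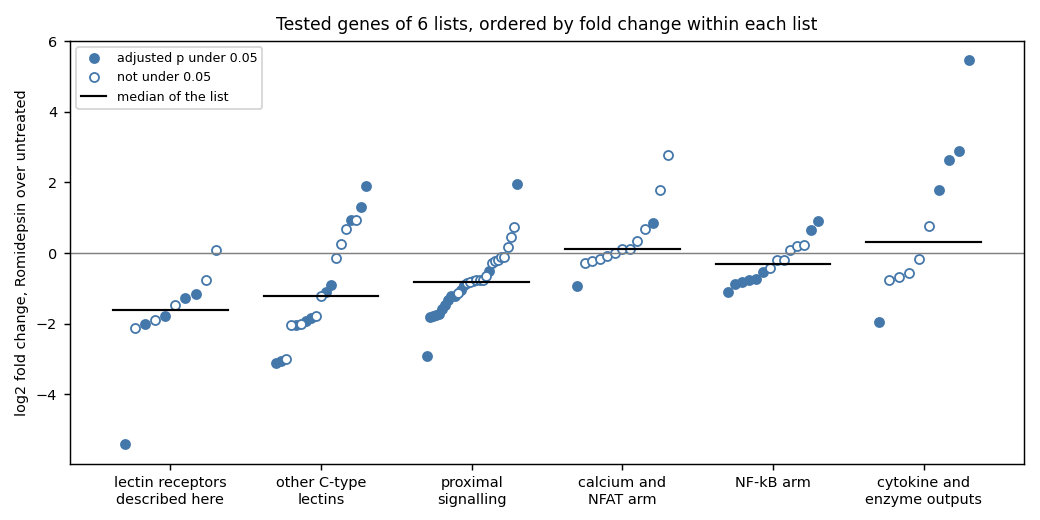
Log2 fold changes of the tested genes of 6 lists, ordered within each list; filled points have an adjusted p under 0.05 and bars are list medians. The medians run from −1.62 for the 10 receptors and −1.23 for other lectins to 0.31 for outputs.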

How the data were processed

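The authors deposited raw read counts per Ensembl gene for each of 8 poly(A) libraries. The genome GRCm38 (mm10) and the tools STAR 2.5.2a, FastQC and DESeq2 are named per the submitters' processing notes. Of the counting tool, annotation release and strand setting, nothing is recorded in these sources. Gene symbols matched 26881 of 26930 identifiers, and coordinates are GENCODE on GRCm38.

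Groups come from the sample titles. Counts were analysed in R 4.3.3 with edgeR 4.0.16 (filterByExpr, TMM, robust two-sided quasi-likelihood F test, Benjamini-Hochberg over 12852 genes, threshold 0.05). Ratios within a library were log2 CPM differences with a prior count of 1, compared by the exact permutation test over 70 assignments. Alternatives were other scalings, no filter, keeping genes at 10 CPM or more on average, limma-voom (limma 3.58.1), the Wald test of DESeq2 1.42.0, other prior counts, a replicate block and leaving out libraries. Levels per kb without treated replicate 3 were added after seeing the data. The fit was tested on simulated data. Figures were drawn with matplotlib 3.10.9.

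Libraries with the same replicate number deviated together (r = 0.523, 0.290, 0.450 and 0.186, at most 0.0455 between different numbers), all above the bound of 0.1, and were treated as pairs on that ground; the labels do not say what links them. Among the fits, pairing enters only the one with a block. It also enters the sign-flip tests, the counts of pairs and the differences from the untreated library of the same number. The other fits and the permutation tests are unpaired.

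The genes and lists were chosen with earlier results of these data known. From each signalling list, the called genes with the smallest p (up to 3 in the majority direction and 1 in the other) and the most highly expressed gene not called were named. Adaptors, ratio partners and, for Clec4e, Clec7a, Clec10a and Asgr2, the 3 nearest profiles were named too. Some genes the rule took are not reported here. Bcl10, Malt1 and genes marked so in the text were chosen after their values were seen.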

Additional observations from a re-analysis of the deposited data

Results flagged for a closer look

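In groups of 4 libraries, 7 of the 96 groups examined held a library flagged by Dixon's test. Its gap to the nearest neighbour, divided by the range of the group, exceeded the 95% critical value. Chance flags about 1 in 20 groups if they are normal and independent, which groups from the same libraries need not be. In 5 of the 7 flagged groups the library was untreated replicate 1. It held 125 CPM of Clec4a2 (other untreated libraries 67.2 to 75.2), 519 CPM of Clec4n (153 to 201), 163 CPM of Clec5a (72.4 to 79.9), 91.9 CPM of Asgr2 (7.98 to 14.5) and 101 CPM of Mgl2 (17.2 to 20.6). The other 2 were treated replicate 3, which held 0.927 CPM of Clec4b2 against 0.0635 to 0.194 in the other treated libraries, and 15.7 CPM of Ccl4 against 2.92 to 4.66.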

How the results depend on the processing

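Of 12996892 to 23176949 counts per library, Asgr2 kept 7 to 18 after treatment, so its fold change is imprecise, and with 4 libraries a group no ratio could pass alone. Among the 10 receptors 5 were lower, against 3 with housekeeping scaling, 3 without a count filter, 8 with the DESeq2 Wald test, 8 with limma-voom, 8 without both libraries numbered 3 and 1 to 9 when 1 library was left out. The causes were not tested. No receptor was higher in any alternative.

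The log2 fold change of Clec4e turned negative with limma-voom (−0.090), the replicate block (−0.11), and without both libraries numbered 3 (−0.28). It was −0.29 to 0.32 when 1 library was left out, and negative without untreated replicate 2 (−0.015), treated replicate 3 (−0.29) or treated replicate 4 (−0.085). The log2 ratio of Clec4a2 to Clec4a3 turned to −0.11 without untreated replicate 3 and −0.16 without treated replicate 1 (range −0.16 to 0.64), and that of Clec5a to Tyrobp to −0.017 and −0.00036 without untreated or treated replicate 3 (range −0.017 to 0.39). The other 116 of 120 ratio values kept their direction, and 0 ratios passed under any prior count or scaling tried. The values with library size alone and with the block could not turn. Scaling cancels within a library, and the mean difference within pairs equals the unpaired difference.

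Over all genes, 2610 were higher and 2080 lower with TMM, 3886 and 1368 with library size alone, and 6007 and 632 with housekeeping scaling. Leaving out 1 library gave 1716 to 3146 higher and 1183 to 3010 lower genes. With housekeeping scaling, 3 other lectins, 7 proximal, 0 NFAT and 0 NF-kB genes were lower and 4 proximal, 10 NFAT and 4 NF-kB genes higher. With library size alone, 3 proximal and 3 NFAT genes were higher and 3 NF-kB genes lower. The replicate block gave 12 lower lectins, 2 higher NFAT, 1 higher NF-kB and 2 lower output genes. DESeq2 gave 2 higher NFAT genes, and leaving out treated replicate 3 gave 3 higher proximal and 4 higher NFAT genes. The block changed the calls of Clec4a1, Clec4a3 and Clec10a and of no other receptor. The comparison of protein sequences was not run.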
